A study of Mus musculus with 4 samples.

Results

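Muscle microRNA genes encode the small regulatory RNAs that skeletal muscle and heart make at high level, often called myomiRs. The members were Mir1a-1, Mir1a-2, Mir133a-1, Mir133a-2, Mir133b, Mir206, Mir486 and Mir499. They were chosen by name among the genes annotated as microRNA, by a rule that uses no measured value. All 8 were present in the deposited table, which listed 55573 genes and, among them, 2207 microRNA genes.

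The table held ribosome profiling of primary myoblasts, the muscle precursor cells grown out of the hind-limb muscle of 3-week-old mice, on day 2 of proliferation in medium with FGF. There were 2 wild-type (WT) libraries and 2 libraries labelled eIF5A knockout (eIF5A-KO), and all cells had received cycloheximide, which holds ribosomes on RNA. Per the study, the sequenced myoblasts came from knockout mice induced with tamoxifen and from WT littermates. For its satellite cell experiments it describes the knockout mice as Pax7CreERT2/+;eIF5A f/f. The controls there are described as Pax7CreERT2/+ in one place and as Pax7+/+;eIF5A f/f in another. Nothing in the labels says whether the libraries of a group came from separate animals or cultures, so a p-value measures only the spread between these libraries, which may be technical. The Cre is driven from Pax7, so it is designed to act only in cells that express that gene, and neither recombination nor Eif5a by cell type was measured here. The targeted gene was not lower in the libraries labelled eIF5A-KO: Eif5a had 34.9 and 65.2 RPKM (reads scaled by gene length and library size) in the WT libraries and 60.3 and 59.4 RPKM in the libraries labelled eIF5A-KO. The study measured its knockout otherwise, by RT-qPCR and immunostaining of eIF5A in satellite cells, and judged it successful. RPKM over the whole gene in a bulk culture is a different measure.

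A microRNA gene is transcribed as a long primary RNA, from which the nuclease Drosha cuts a hairpin. Exportin 5, with Ran, carries the hairpin to the cytoplasm, Dicer cuts out the mature strands, and an Argonaute protein loads a strand that lowers the output of mRNAs matched by its seed. In skeletal muscle, MyoD, myogenin, Mef2 and Srf drive these genes, and miR-1, miR-133 and miR-206 rise when myoblasts leave the cell cycle and fuse. MicroRNAs are not translated, and a mature microRNA is shorter than the ribosome footprint that the library was purified for, so a read on such a gene is not a measure of translation.

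The sequences shown are those of 3 members, 2 whose genes lie in exons of the noncoding gene Gm28653 and the only member with reads. They are RefSeq sequences of build GRCm38.p6, written 5′ to 3′, and capitals in the mature sequences mark the seed, bases 2 to 8. MiR-206 shares its seed with miR-1, and miR-133b shares its seed with miR-133a. In the RefSeq table the seed of miR-206-3p also stood in miR-6349 and miR-6382, and no other mature mouse microRNA had the seed of miR-499-5p.
mmu-miR-206-3p (chr1:20679055-20679076, plus strand): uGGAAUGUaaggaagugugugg
mmu-miR-133b-3p (chr1:20682834-20682855, plus strand): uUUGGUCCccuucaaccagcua
mmu-miR-499-5p (chr2:155622893-155622913, plus strand): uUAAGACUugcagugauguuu
Mir206 hairpin (chr1:20679010-20679082, plus strand), capitals inside an exon of Gm28653: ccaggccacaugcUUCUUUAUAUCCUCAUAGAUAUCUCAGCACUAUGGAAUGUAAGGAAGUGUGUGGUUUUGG
Mir499 hairpin (chr2:155622880-155622958, plus strand), capitals the mature miR-499-5p: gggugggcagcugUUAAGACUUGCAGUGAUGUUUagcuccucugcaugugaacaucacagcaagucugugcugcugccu

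Among the muscle microRNA genes, 7 of 8 were listed at 0 in all 4 libraries. These were both Mir1a genes, both Mir133a genes, Mir133b, Mir206 and Mir486. Mir499, which lies in the myosin gene Myh7b, was the exception, with 1 and 1 reads in WT libraries 1 and 2 and with 4 and 1 reads in eIF5A-KO libraries 1 and 2. A zero was common among microRNA genes: 1916 of 2207, or 86.8%, were at 0 in all 4 libraries. The members' count of zeros is near that background and is not by itself a result about them.

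The depth behind these zeros was small for genes of this length. The libraries held between 642429 and 704006 recovered reads, of which 27897 and 107866 fell on microRNA genes in WT libraries 1 and 2, against 16295 and 18535 in eIF5A-KO libraries 1 and 2. These were 4.30% and 16.8% of the WT reads and 2.31% and 2.85% of the eIF5A-KO reads, so WT library 2 stood apart. For Mir206, the limit that a count of 0 allows (3 reads) corresponds to 68.2 and 87.2 RPKM in the WT libraries and to 45.3 and 50.9 RPKM in the libraries labelled eIF5A-KO. As a share of microRNA reads, the same limit was 0.0108% and 0.00278% in the WT libraries and 0.0184% and 0.0162% in the others. PCR copies of a molecule were counted as separate reads, so these limits and the intervals given here hold counting error alone.

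The members together held 0.00358% of the microRNA reads in WT library 1 (95% Wilson interval 0.000633 to 0.0203) and 0.000927% in WT library 2 (0.000164 to 0.00525). In the libraries labelled eIF5A-KO they held 0.0245% (0.00955 to 0.0631) in library 1 and 0.0054% (0.000952 to 0.0306) in library 2. The means were 0.00226% ± 0.00188 (SD, n = 2) in WT and 0.015% ± 0.0135 (SD, n = 2) in eIF5A-KO. Both eIF5A-KO shares were above both WT shares, but the interval of eIF5A-KO library 2 held the value of WT library 1. Both WT libraries and eIF5A-KO library 2 held 1 read each on the members. The order of their shares was therefore set by their totals of microRNA reads alone. Without eIF5A-KO library 1, the only library with more than 1 read on a member, the eIF5A-KO share was 0.0054%, and without WT library 1 the WT share was 0.000927%.

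**Figure D1:**
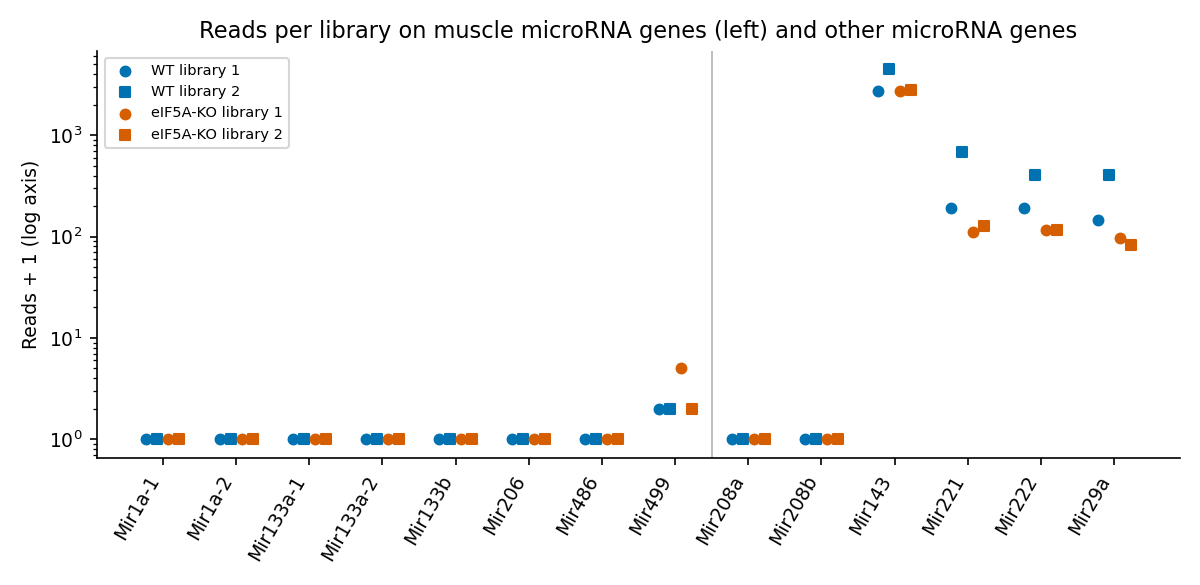
Reads per library, plotted as reads + 1 on a log axis, for the 8 muscle microRNA genes (left of the line) and 6 other microRNA genes (right). Circles and squares are libraries 1 and 2, blue is WT and orange is eIF5A-KO. Mir499 is the only member above the baseline, with 1 to 4 reads, while Mir143 had 2752 to 4487 reads in the same libraries.

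The zeros were next set beside where each gene lies in the annotation of build GRCm38. Mir206 and Mir133b form a cluster on chromosome 1 and are expressed in skeletal muscle. Mir133b (chr1:20682769-20682887, plus strand) lies with all 119 of its bases inside an exon of Gm28653, a long noncoding gene on the same strand. Of the 73 bases of Mir206, 60 (82.2%) are in an exon of the same gene, which touches both of its mature arms, as the capitals in the hairpin show. Gm28653 itself had 2 reads in WT library 1 and 0 in the other libraries.

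Mir1a-2 and Mir486 overlap a microRNA gene on the other strand. All 72 bases of Mir1a-2 (chr18:10785481-10785552, minus strand) lie within Mir1b, which was also at 0 in all 4 libraries. Mir486 (chr8:23142555-23142682, plus strand) lies within the span of Ank1, the gene of erythroid and muscle ankyrin, and has 90 of its 128 bases (70.3%) in Mir3107. Reads of an overlapping pair cannot be told apart when strand is not used, and the strand setting of the counting was not given in the sources used here.

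The other 4 members overlap no exon of another gene. Mir1a-1 (chr2:180389048-180389124, plus strand) and Mir133a-2 (chr2:180398379-180398482, plus strand) form a second cluster, and Mir133a-1 (chr18:10782909-10782976, minus strand) lies beside Mir1a-2. These clusters are copies of each other: Mir1a-1 shares a run of 28 identical bases with Mir1a-2, and Mir133a-1 shares 31 with Mir133a-2. Mir133b shares 21 bases with each Mir133a gene. Mir499 shares no run of 20 bases with another microRNA gene and lies in an intron of Myh7b, 158 bases after an exon and 244 bases before the next, so among the 8 members it was the only one with neither an overlapping exon nor such a shared run.

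**Figure D2:**
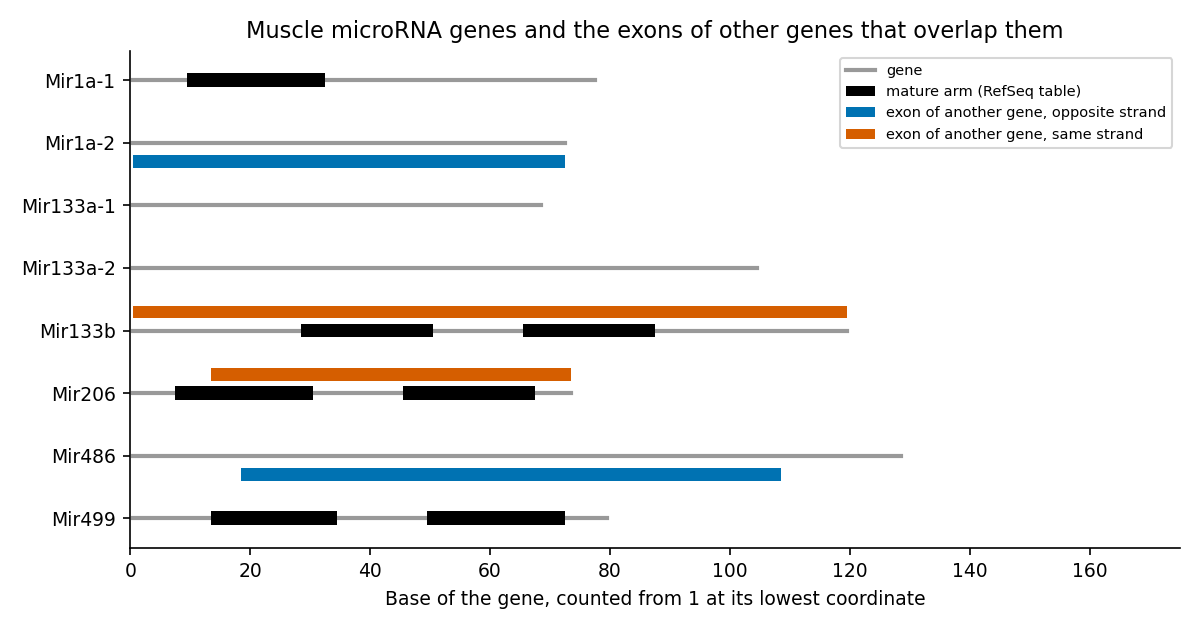
Each muscle microRNA gene drawn to scale in bases from its lowest coordinate (grey line), with its mature arms where the RefSeq table held them (black) and exons of other genes on the same strand (orange) or the opposite strand (blue). Mir133b and Mir1a-2 are covered whole, Mir206 over 60 bases and Mir486 over 90 bases, and the other 4 genes are not covered.

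Over all microRNA genes, those inside other genes' exons were seldom given a read. Of 404 microRNA genes that lie wholly within exons of other genes, as Mir133b and Mir1a-2 do, 0 had a read, which allows a share of up to 0.743%. Among them, 118 were wholly inside when only exons of the opposite strand were counted, as for Mir1a-2, and 0 of these had a read, which allows up to 2.54%. Where the overlap was partial but touched every mature arm, as in Mir206, 1 of 46 genes had a read (2.17%, 95% Wilson interval 0.385 to 11.3). Where it left an arm free, 20 of 52 genes had reads (38.5%, 26.5 to 52.0). Mir486 falls among the genes with partial overlap and no mature arm in the RefSeq table, of which 4 of 87 had reads (4.60%, 1.80 to 11.2). By comparison, 266 of the 1613 microRNA genes with no overlap had reads (16.5%, 14.8 to 18.4).

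The same held outside the microRNA class. Among genes that are no microRNA genes, 1 of 840 that lie wholly inside other genes' exons had a read, while 18656 of the 52352 such genes with an exonic base of their own had reads (35.6%). The study's methods name HTSeq for the counting, which in its default mode gives a read on exons of more than 1 gene to none of them. The mode used was not given in the sources used here. A 0 on Mir133b, Mir1a-2, Mir206 or Mir486 was therefore not read as absence of the RNA.

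Repeated sequence was the other feature that members shared. Among microRNA genes with no overlap, 56 of 838 with a shared run of 22 bases or more had reads (6.68%), against 191 of 736 with no shared run of 20 bases (26.0%). This contrast was not seen among genes whose mature arm RefSeq gives, where 30 of 94 (31.9%) and 176 of 573 (30.7%) had reads. Where every mature arm also occurs in another microRNA transcript, 2 of 29 genes had reads (6.90%, 95% Wilson interval 1.91 to 21.97). Where some arms were repeated, 22 of 37 had reads (59.5%, 43.5 to 73.7), and where none was, 199 of 623 (31.9%, 28.4 to 35.7). These classes rest on the arms that the RefSeq table held, which was only 1 for Mir1a-1. Mir133a-1 and Mir133a-2 had no arm there and are in none of these classes. The part of repeated sequence in the zeros of Mir1a-1, Mir133a-1 and Mir133a-2 was not tested.

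**Figure D3:**
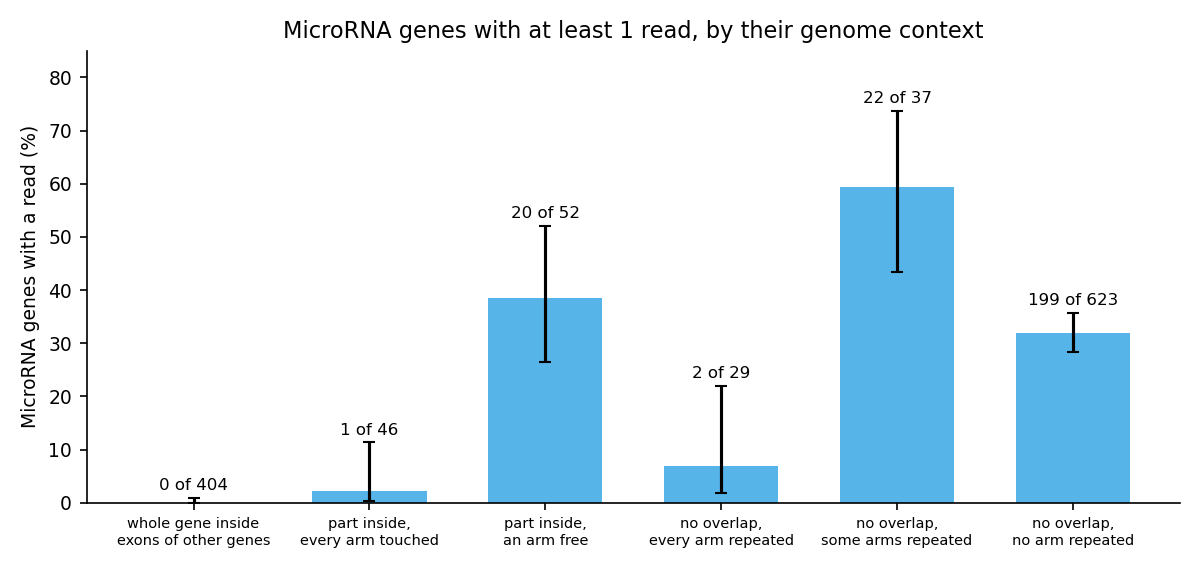
Percent of microRNA genes with at least 1 read in the 4 libraries, by genome context, with 95% Wilson intervals as error bars and counts above the bars. Genes wholly inside other genes' exons had reads in 0 of 404 cases, and genes whose every arm was repeated in 2 of 29, against 199 of 623 with no overlap and no repeated arm.

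Zeros were also seen on muscle microRNA genes without overlap or copy. Mir208a and Mir208b, relatives of Mir499 that lie in the cardiac myosin genes, have no overlapping exon and no shared run of 20 bases, and both were at 0 in all 4 libraries.

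Mir499 was thus the only member with a level to compare. It had 21.0 and 26.9 RPKM in the WT libraries and 55.8 and 15.7 RPKM in the libraries labelled eIF5A-KO. The eIF5A-KO libraries held both the highest and the lowest value, so the groups overlapped. The mean level was 23.9 RPKM ± 4.15 (SD, n = 2) for the WT libraries and 35.7 RPKM ± 28.4 (SD, n = 2) for those labelled eIF5A-KO. The 5 reads in eIF5A-KO against 2 in WT gave a ratio of 1.57 (exact 95% interval 0.256 to 16.4, counting error alone) with the library sizes behind the authors' RPKM, which were 602863 and 471136 in WT and 906990 and 807705 in eIF5A-KO. With the recovered read totals as library sizes the ratio was 2.38 (0.39 to 25.0), an alternative chosen after seeing the data. An exact two-sided permutation test over the libraries gave p = 1, and with 2 libraries a group it cannot give a p under 0.333.

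In the limma fit across all tested genes, the log2 difference of Mir499 (eIF5A-KO minus WT, of RPKM + 1) was 0.31 ± 0.65 (SE), with an adjusted p of 0.885. It turned to -0.57 without eIF5A-KO library 1 and was 1.20 without eIF5A-KO library 2, with adjusted p between 0.188 and 0.983 over the alternatives. At this depth no difference was detectable. Thus 0 of the 8 members were called lower and 0 higher, and only Mir499 passed the filter on low values (a mean of at least 1 RPKM). At an unadjusted p under 0.05, 4.46% of all tested genes were lower and 2.86% were higher in eIF5A-KO (507 and 325 genes). This balance turned with the scaling, to 169 lower and 1689 higher when each library was given an equal total and to 62 lower and 3278 higher with the same sum over microRNA genes. At an adjusted p under 0.05, 0.0968% were lower and 0.0088% were higher, calls that most alternatives did not keep.

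Among the 291 microRNA genes with any read, Mir499 ranked 158th by reads, a place that 6 genes with the same count shared, and 165th by mean RPKM. The median of these 291 genes was 11 reads over the 4 libraries, while Mir499 had 7. In RPKM, the microRNA genes with at least 20 reads whose pattern over the 4 libraries was most like that of Mir499 were Mir574, Mir200a, Mir375, Mir92b and Mir200b. The likeness is the root mean square difference of log2(RPKM + 1) values centred on their mean, and it ran from 0.512 for Mir574 to 0.799 for Mir200b. Mir574 had 276 and 299 RPKM in WT and 311 and 222 RPKM in eIF5A-KO, with the eIF5A-KO libraries holding its extremes as for Mir499. With 4 libraries and 7 reads on Mir499, this likeness describes these libraries only.

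Mir499 was also set beside the microRNA class, in which 67 of 291 tested genes (23.0%) were lower in eIF5A-KO at an unadjusted p under 0.05 and 2 (0.687%) were higher. The difference between Mir499 and the class was not tested. The median log2 difference of the class was -1.78, and 233 of 291 genes were below 0. Without WT library 2, which held the most microRNA reads, that median was -0.61, and scaling the libraries to the same sum over microRNA genes turned it to 0.35, against a median of 1.63 for all genes under that scaling, a difference of -1.28.

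Some microRNAs of proliferating and mesenchymal cells had many reads in the same libraries and others had none. Of the 8 listed for proliferating myoblasts, 5 had reads, and of the 6 listed for mesenchymal cells, 3 had reads. Those at 0 were Mir27b, Mir31, Mir125b-1, Mir199a-2 and Mir214, which lie wholly inside other genes' exons, and Mir199a-1, which has no overlapping exon but shares a run of 28 bases with Mir199b. A shared run did not go with a 0 throughout, as Mir199b itself had 185 reads over the 4 libraries. Mir125b-2 and Mir29b-1, with shared runs of 24 and 25 bases, had 66 and 4 reads. Mir221, from a pair that is active in cycling myoblasts and targets the cell cycle inhibitor p27, had 190 and 680 reads in WT and 109 and 127 reads in eIF5A-KO. Its partner Mir222 had 190 and 405 reads in WT and 115 and 116 reads in eIF5A-KO. The log2 differences were -2.29 ± 0.94 (SE) for Mir221 and -1.95 ± 0.80 (SE) for Mir222, and neither passed the limma test after adjustment (adjusted p = 0.672 for each). With limma-voom on the recovered reads the adjusted p was 0.0182 for Mir221 and 0.0403 for Mir222, and over all alternatives it reached 0.970 for Mir221 and 0.944 for Mir222. Without WT library 2 the log2 differences were -1.20 for Mir221 and -1.22 for Mir222. Mir143, a microRNA of fibroblasts and smooth muscle, had 2752 and 4487 reads in WT and 2757 and 2831 reads in eIF5A-KO. On the RPKM scale its log2 difference was -1.01 ± 1.16 (SE), with an adjusted p of 0.781 in limma.

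The genes around the members ranged from no read to the moderate level of Mib1. Myh7b, a slow-type myosin heavy chain gene whose intron holds Mir499, was at 0 in all 4 libraries, as was Mir133a-1hg, the transcript across Mir1a-2 and Mir133a-1. Ank1 had 9 and 7 reads in WT and 3 and 7 reads in eIF5A-KO, or 1.10 and 1.10 RPKM against 0.245 and 0.641 RPKM, below the filter on low values. Mib1, a ubiquitin ligase of the Notch pathway that spans the Mir1a-2 cluster on the other strand, had 9.71 and 10.5 RPKM in WT and 6.25 and 10.8 RPKM in eIF5A-KO. Its groups overlapped, with a log2 difference of -0.26 ± 0.41 (SE) and an adjusted p of 0.844 in limma.

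Marker genes of muscle and other cells were set beside the member values. All 9 myoblast markers had reads, with summed levels of 259 and 210 RPKM in WT and 120 and 135 RPKM in eIF5A-KO. Myod1 was the largest part of that sum, with 140 and 117 RPKM in WT and 48.6 and 79.8 RPKM in eIF5A-KO. Of these 9 markers, 8 had a log2 difference below 0 and 1 above, with a median of -1.03. At an unadjusted p under 0.05 in limma 4 were lower and 0 higher, beside 4.46% and 2.86% of all tested genes. After adjustment 0 were called. Vcam1 went the other way, with 5.42 and 11.7 RPKM in WT and 20.01 and 12.98 RPKM in eIF5A-KO. All 9 myotube markers, the genes of fusing and contractile cells in which miR-1, miR-133 and miR-206 are known to be high, had a read in some library, and summed to 247 and 68.2 RPKM in WT and to 38.5 and 35.3 RPKM in eIF5A-KO. That of WT library 1 came mostly from Acta1, skeletal actin, with 129 RPKM and from Myog, the differentiation factor myogenin, with 91.0 RPKM. The fusion genes Mymk and Mymx had 2 reads and 1 read, all in eIF5A-KO library 1, and embryonic myosin Myh3 had 11 reads in WT library 1 and 1 in eIF5A-KO library 2. Of the myotube markers 5 were tested, and all 5 had a log2 difference below 0. WT library 1 had 1 read on the members. Fibroblast markers (8 of 8 with reads) summed to 461 and 270 RPKM in WT and 775 and 346 RPKM in eIF5A-KO, of which the proteoglycan gene Dcn gave 240 and 126 RPKM in WT and 460 and 171 RPKM in eIF5A-KO, and 6 of the 8 had a log2 difference above 0. All 5 endothelial markers had reads and summed to 106 and 99.8 RPKM in WT and 139 and 112 RPKM in eIF5A-KO, and all 5 had a log2 difference above 0. Of the immune markers 5 of 6 had reads (25.0 to 38.5 RPKM summed, Itgam at 0), and of the erythroid markers 6 of 7 (Slc4a1 at 0). The erythroid markers summed to 49.4 and 113 RPKM in WT and 33.3 and 24.1 RPKM in eIF5A-KO. The 5 of them that were tested all had a log2 difference below 0. In bulk cultures, fewer cells of a type and less RNA per cell cannot be told apart, and the part of cell makeup in the values of the members was not tested.

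Endothelial markers were compared with the microRNA of the same cells. The endothelial cadherin gene Cdh5 had 71.0 and 63.6 RPKM in WT and 87.1 and 68.0 RPKM in eIF5A-KO, values that overlapped. Its log2 difference was 0.19, against a median of 0.57 for the 5 endothelial markers. At an unadjusted p under 0.05 in limma 1 of the 5 (Kdr) was higher, beside 2.86% of all tested genes, and after adjustment 0 were called. Mir126a, the microRNA that endothelial cells are known for, was at 0 in all 4 libraries. Mir126a lies wholly inside exons of Egfl7 and Mir126b. It is among the 404 such microRNA genes counted above.

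The regulators and the machinery of microRNAs were then compared. Of the 10 genes known to drive the muscle microRNA genes, 9 passed the filter and 0 were called after adjustment. At an unadjusted p under 0.05, 2 were lower (Myog and Myf5) and 0 were higher, beside 4.46% and 2.86% of all tested genes. Of the 9 regulators tested, 7 were below and 2 above 0, with a median log2 difference of -0.82. Myog had 91.0 and 4.26 RPKM in WT and 0.737 and 1.66 RPKM in eIF5A-KO, so 82 of its 88 reads were in WT library 1, without which its log2 difference went from -3.36 to -1.29. Myf5, an early myogenic factor, had 6.37 and 4.08 RPKM in WT and 1.06 and 0 RPKM in eIF5A-KO, on 14 reads in all. Of the 16 genes of the microRNA pathway, 13 were tested, 0 were called after adjustment in either direction, and at an unadjusted p under 0.05 0 were lower and 1 was higher, beside 4.46% and 2.86% of all tested genes. Their log2 differences ran from -0.83 to 1.22 with a median of -0.16, against 0.00 for all tested genes, and 8 were below and 5 above 0.

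In the nucleus, Drosha, the nuclease that releases the hairpin, had 6.71 and 6.80 RPKM in WT and 3.53 and 3.96 RPKM in eIF5A-KO. Both eIF5A-KO libraries were below both WT libraries, with a log2 difference of -0.71 ± 0.35 (SE) and an adjusted p of 0.676 in limma. Dgcr8, which binds RNA beside Drosha, had 2.80 and 1.38 RPKM in WT and 1.86 and 5.15 RPKM in eIF5A-KO, and its groups overlapped. Xpo5, which codes for exportin 5, had 7.50 and 7.74 RPKM in WT and 19.3 and 16.8 RPKM in eIF5A-KO. Its log2 difference of 1.14 ± 0.37 (SE) was the one past the unadjusted threshold in limma, and it did not pass after adjustment (adjusted p = 0.660). Its partner Ran had 21.3 and 80.2 RPKM in WT and 83.8 and 115 RPKM in eIF5A-KO, with a log2 difference of 1.22 ± 0.70 (SE) and an adjusted p of 0.697. Leaving out WT library 1 gave 0.29 for Ran, and leaving out WT library 2 gave 2.15.

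In the cytoplasm, Dicer1 had 4.26 and 1.65 RPKM in WT and 1.97 and 1.85 RPKM in eIF5A-KO, values that overlapped. Ago2, the Argonaute that can cut its target, had 12.1 and 5.60 RPKM in WT and 3.30 and 5.38 RPKM in eIF5A-KO. The groups of Ago2 were separated by less than the spread between libraries of a group, and its log2 difference of -0.83 ± 0.48 (SE) did not pass (adjusted p = 0.697). Lin28a, which blocks maturation of let-7, was listed at 0.

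Targets of the muscle microRNAs known from textbooks showed no shared direction. Of the 18 listed, 13 were tested, 6 were below and 7 above 0, and the median log2 difference was 0.13. After adjustment 0 were called, and at an unadjusted p under 0.05 2 were lower (Pax7 and Ucp2) and 0 were higher, beside 4.46% and 2.86% of all tested genes. The RNA level of these cells was not analysed here, so a change of target mRNA and a change of its translation cannot be told apart in these values.

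Among the targets of miR-1 and miR-206, 9 were tested, 4 below and 5 above 0, with a median of 0.24. Gja1, which codes for connexin 43, had 16.0 and 25.7 RPKM in WT and 41.9 and 29.0 RPKM in eIF5A-KO. Fstl1, a secreted glycoprotein gene, had 78.0 and 83.8 RPKM in WT and 172 and 116 RPKM in eIF5A-KO. G6pdx, the first enzyme of the pentose phosphate pathway, had 19.9 and 27.6 RPKM in WT and 42.6 and 59.1 RPKM in eIF5A-KO. The log2 differences were 0.75 ± 0.46 (SE) for Gja1, 0.80 ± 0.47 (SE) for Fstl1 and 1.07 ± 0.44 (SE) for G6pdx. None of these 3 genes passed the limma test, the adjusted p being 0.697 for Gja1 and Fstl1 and 0.672 for G6pdx. Over the alternatives the log2 difference ran from 0.43 to 1.34 for Gja1 and from 0.51 to 1.46 for Fstl1. For G6pdx it ran from 0.83 to 1.66, and each of these lowest values came from leaving out 1 library. Pola1, the catalytic subunit of DNA polymerase alpha and a target of miR-206 in cells that leave the cycle, had 1.13 and 3.13 RPKM in WT and 5.25 and 4.07 RPKM in eIF5A-KO. Other targets lay below 0. Pax7, the satellite cell factor, had 8.49 and 3.62 RPKM in WT and 0.941 and 1.48 RPKM in eIF5A-KO, with a log2 difference of -1.59 ± 0.50 (SE) that did not pass after adjustment (adjusted p = 0.660 in limma). The receptor gene Notch3 had 11.5 and 6.04 RPKM in WT and 4.91 and 4.59 RPKM in eIF5A-KO, and a log2 difference of -0.71 ± 0.43 (SE). Hdac4, the histone deacetylase that restrains Mef2, had 5.98 and 2.55 RPKM in WT and 1.88 and 1.80 RPKM in eIF5A-KO. Its log2 difference of -0.81 ± 0.48 (SE) did not pass the limma test (adjusted p = 0.697).

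Of the targets of miR-133, 3 were tested. Ucp2, a mitochondrial carrier, had 19.5 and 17.0 RPKM in WT and 2.37 and 8.15 RPKM in eIF5A-KO. Its log2 difference of -1.79 ± 0.56 (SE) did not pass the limma test after adjustment (adjusted p = 0.660), while limma-voom on the recovered reads gave an adjusted p of 0.0362. The log2 difference of Ucp2 was -1.07 when eIF5A-KO library 1 was left out and -2.51 when library 2 was. Over all alternatives the adjusted p of Ucp2 lay between 0.0362 and 0.944. Srf, the serum response factor, both drives these microRNA genes and is a miR-133 target, and had 21.8 and 18.3 RPKM in WT and 3.05 and 14.6 RPKM in eIF5A-KO, with a log2 difference of -1.40 ± 0.68 (SE) and an adjusted p of 0.676. For Srf it was -0.43 without eIF5A-KO library 1 and -2.37 without eIF5A-KO library 2. Ptbp2, a splicing repressor, had 1.81 and 1.62 RPKM in WT and 2.64 and 1.75 RPKM in eIF5A-KO, values that overlapped. Among the listed targets of miR-486 and miR-499, 1 was tested. Foxo1, a transcription factor that Akt holds out of the nucleus, had 5.36 and 2.69 RPKM in WT and 3.94 and 4.72 RPKM in eIF5A-KO, values that overlapped.

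**Figure D4:**
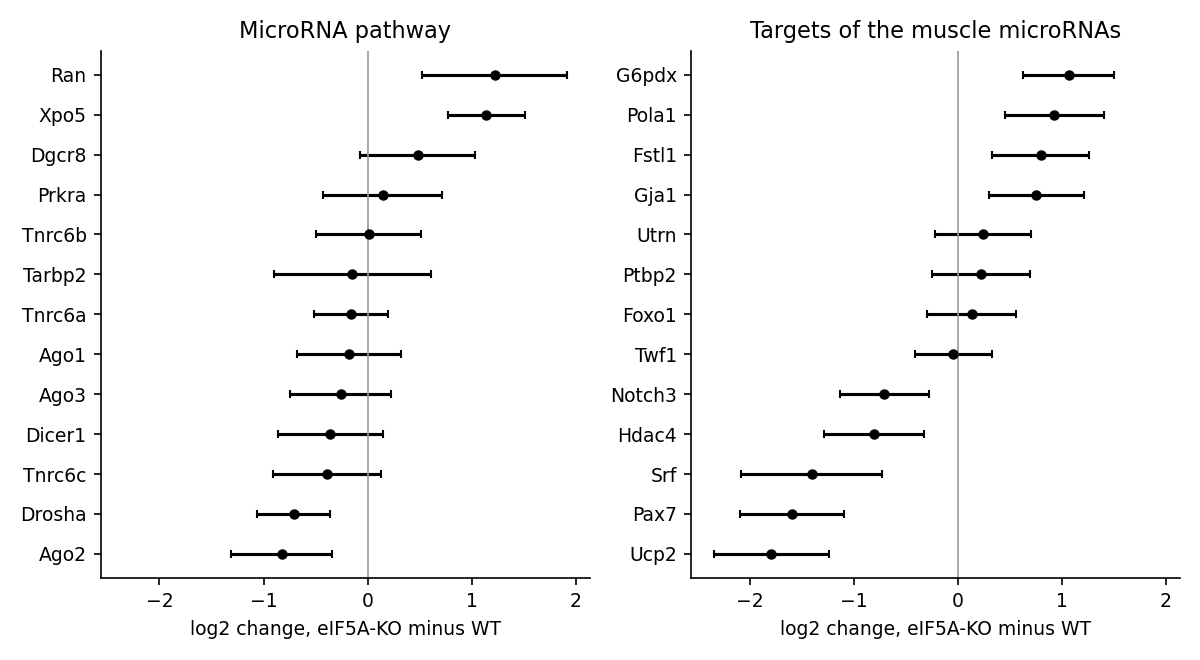
Log2 difference of RPKM + 1, eIF5A-KO minus WT, with its standard error from limma, for the tested genes of the microRNA pathway (left) and the tested targets of the muscle microRNAs (right). Pathway genes run from -0.83 (Ago2) to 1.22 (Ran), targets lie 6 below and 7 above 0, and none passed the test after adjustment.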

How the data were processed

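Libraries were made by RNase I digestion, column enrichment of ribosomes and gel purification of protected fragments, although the titles name Polysome-Seq. Per the study's methods, the authors removed low-quality, adapter, rRNA and tRNA reads, mapped with TopHat2 to mouse (mm10, Ensembl annotation) and counted with HTSeq, and they deposited RPKM values with gene lengths. The reads were recovered from these values: RPKM times length, divided by its smallest step in the library, was whole for 100% of values (tolerance 0.001). The WT libraries held 648386 and 642429 reads and the eIF5A-KO libraries 704006 and 650210.

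Groups came from the sample titles. The 11363 genes with a mean of 1 RPKM or more were tested with limma (version 3.58.1, R 4.3.3; eBayes with trend=TRUE) on log2(RPKM + 1), which understates changes of weakly read genes, with Benjamini-Hochberg adjustment. On simulated data the fit did not find all changed genes after adjustment. It also called some unchanged genes of few reads, so adjusted calls over all genes serve as background only. Whether the fit would find a change in a gene with as few reads as Mir499 was not tested. Exons came from GENCODE M21 (GRCm38), which held 99.7% of the table's identifiers, and sequences from RefSeq, in which 4 of 8 members had a mature entry. The members and gene lists were chosen with earlier results of these data known, and 1 further target, counted in no list, is not reported here. Genes named were the members, genes of the lists and the 5 microRNA genes of at least 20 reads most like Mir499. Alternatives were other pseudocounts, filters, scalings, limma settings, limma-voom on recovered reads, a replicate block and leaving out each library.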

Additional observations from a re-analysis of the deposited data

How the results depend on the processing

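The count of members called stayed 0 lower and 0 higher under every alternative in which Mir499 could be tested, while a minimum of 20 reads, chosen after seeing the data, left no member to test. Over all genes, the fit called 11 lower and 1 higher after adjustment. These counts were 0 and 0 with a pseudocount of 0.1, with no filter, with a minimum of 5 RPKM, with libraries scaled to the same sum, with trend=FALSE, with the replicate block, with at least 20 reads, and without each library in turn (lowest 0, highest 0). At an unadjusted p under 0.05 these settings had between 169 and 791 genes lower and between 178 and 1689 higher. Limma-voom gave 78 lower and 1 higher, the same sum over protein-coding genes 12 and 1, and the same sum over microRNA genes 8 and 29 (62 and 3278 unadjusted). Scaling moved the median log2 difference of all genes to 0.50 (same sum) and to 1.63 (microRNA sum), and the values of named genes under those scalings are relative to it. Fits without a library assume that the lone library varies like the other group.

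The members' share of microRNA reads was 0 in both groups without Mir499, and ran from 0.000927% to 0.00358% in WT and from 0.0054% to 0.0245% in eIF5A-KO without a library of that group. Of 286 values of 21 named genes, 280 kept direction and side of the threshold, and 3 passed it under limma-voom (Ucp2, Mir221 and Mir222). Direction turned for Mir499 to -0.57 without eIF5A-KO replicate 1 (from -0.57 to 1.20 over the fits without a library), for Dgcr8 to -0.071 without eIF5A-KO replicate 2 (to 1.03) and for Dicer1 to 0.14 without WT replicate 1 (from -0.85). Without WT replicate 1 the log2 difference was -0.33 for Ago2, -0.32 for Hdac4, -0.29 for Notch3 and 0.45 for Pola1. The cause was not tested. The replicate numbers gave no sign of pairing (correlation of deviations 0.0575 over 11363 genes). With the replicate block, 0 genes were lower and 0 higher, Mir499 stayed at 0.31 and no member's call changed.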
